A study of Homo sapiens with 8 samples.

Results

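The genes of the nuclear oxidative phosphorylation (OXPHOS) system were examined at their promoters by ATAC-seq, an assay in which a transposase inserts sequencing adapters into accessible DNA. The members were all protein-coding genes on chr1-22 of GRCh38 (GENCODE 44) whose symbol begins with NDUFA, NDUFB, NDUFC, NDUFS, NDUFV, SDHA to SDHD, UQCR, COX4 to COX8 or ATP5. This rule used gene symbols only and gave 99 of 19111 protein-coding genes. They comprised 36 genes of complex I, 8 assembly factors of complex I (NDUFAF symbols), 4 genes of complex II, 4 assembly factors of complex II (SDHAF symbols), 9 genes of complex III, 18 of complex IV and 20 of complex V. NDUFA4 and NDUFA4L2 were counted with complex IV, where the NDUFA4 protein is now placed. The readthrough genes NDUFC2-KCTD14 and ATP5MF-PTCD1 begin 89 bp from NDUFC2 and 3 bp from ATP5MF, so each of these pairs shares a promoter and is not 2 independent members.

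OXPHOS is carried out in the inner mitochondrial membrane. Complexes I and II pass electrons from NADH and succinate to ubiquinone, complex III passes them to cytochrome c, complex IV passes them to oxygen, and complex V, the ATP synthase, makes ATP from the resulting proton gradient. Apart from a few core subunits encoded by mitochondrial DNA, the subunits come from nuclear genes, most of which are used in every cell type, and some of which have tissue-restricted copies in heart, skeletal muscle, lung or testis. Promoters of the ubiquitous genes are typically CpG islands, and NRF1, the ETS factor GABP, YY1 and ERRα are transcription factors known to act on many of them.

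All libraries came from HEK293T, a human embryonic kidney line, that had been given a lentiviral cDNA of EZH2, the catalytic subunit of Polycomb repressive complex 2, which methylates histone H3 at lysine 27. The control line carried EZH2 WT, 2 lines carried the gain-of-function (GOF) mutants Y641F or A677G, and 1 line carried the loss-of-function (LOF) double mutant H689A/F667I, with 2 libraries for each of the 4 lines. Every line, WT included, therefore carried the vector and an added EZH2, was selected as 1 population, and is not described as lacking its own EZH2. The comparison asked how the promoters of these genes differed in accessibility between each mutant and WT, and since all 3 comparisons share the same WT libraries, their results are not independent of each other.

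For each library the deposited list of broad peaks was used, and a promoter was called open when a peak overlapped the 1 kb on either side of the transcription start site (TSS) of the gene's canonical transcript. Sequencing depth is unknown. The libraries held 62739 and 60420 peaks on chr1-22 in WT, 25423 and 35380 with Y641F, 36744 and 44754 with A677G, and 46317 and 47164 with H689A/F667I, so that every mutant library held fewer peaks than both WT libraries. Y641F replicate 1 stood apart with the fewest peaks. The number of promoters lost in Y641F is given with and without it, but the Y641F differences of named genes are given only with it. PAX2, CDH2, VIM and NEFM, which HEK293T cells use, were open in all 8 libraries and KRT18 in 7, whereas the promoters of PTPRC, ALB and INS, markers of blood, liver and pancreatic cells, were open in none. The EZH2 gene's own promoter was open in all 8, which does not report on the added cDNA.

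Promoter sequences of 8 members are shown because they carry the contrasts described here: 2 pairs of a ubiquitous and a tissue-restricted complex IV isoform, NDUFA13, the shared promoter of ATP5PF, and the complex I genes NDUFAF8 and NDUFS4, which had the highest and the lowest difference from WT in Y641F. Each run is the sense strand of the gene, 5′ to 3′, from 220 bases before the RefSeq start to 30 bases into the transcript in GRCh38.p14, and capitals mark matches on either strand to the NRF1 motif GCGCANGCG, the ETS motif CCGGAAGT or the YY1 motif AAGATGGC. They lie at chr12:120437893-120438142 (+) for COX6A1, chr16:31428331-31428580 (-) for COX6A2, chr11:63974400-63974649 (+) for COX8A, chr14:93346962-93347211 (+) for COX8C, chr19:19516005-19516254 (+) for NDUFA13, chr21:25734875-25735124 (-) for ATP5PF, chr17:81239098-81239347 (+) for NDUFAF8 and chr5:53560419-53560668 (+) for NDUFS4.
COX6A1: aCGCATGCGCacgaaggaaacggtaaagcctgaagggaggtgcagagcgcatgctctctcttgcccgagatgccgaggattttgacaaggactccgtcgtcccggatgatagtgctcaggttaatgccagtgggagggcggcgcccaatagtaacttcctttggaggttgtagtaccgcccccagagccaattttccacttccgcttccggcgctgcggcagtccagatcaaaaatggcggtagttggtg
COX6A2: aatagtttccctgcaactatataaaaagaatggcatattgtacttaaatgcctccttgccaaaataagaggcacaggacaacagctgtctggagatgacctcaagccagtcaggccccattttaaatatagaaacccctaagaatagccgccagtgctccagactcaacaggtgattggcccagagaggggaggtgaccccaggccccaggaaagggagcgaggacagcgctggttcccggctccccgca
COX8A: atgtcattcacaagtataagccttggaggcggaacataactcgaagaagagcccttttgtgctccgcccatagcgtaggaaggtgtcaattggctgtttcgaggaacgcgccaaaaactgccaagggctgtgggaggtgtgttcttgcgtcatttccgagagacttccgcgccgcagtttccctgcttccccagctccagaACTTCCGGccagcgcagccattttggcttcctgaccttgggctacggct
COX8C: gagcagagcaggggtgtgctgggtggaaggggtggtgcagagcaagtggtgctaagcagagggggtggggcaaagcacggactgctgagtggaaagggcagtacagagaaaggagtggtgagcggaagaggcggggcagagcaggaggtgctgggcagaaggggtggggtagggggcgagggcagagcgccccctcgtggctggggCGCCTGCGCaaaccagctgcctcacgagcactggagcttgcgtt
NDUFA13: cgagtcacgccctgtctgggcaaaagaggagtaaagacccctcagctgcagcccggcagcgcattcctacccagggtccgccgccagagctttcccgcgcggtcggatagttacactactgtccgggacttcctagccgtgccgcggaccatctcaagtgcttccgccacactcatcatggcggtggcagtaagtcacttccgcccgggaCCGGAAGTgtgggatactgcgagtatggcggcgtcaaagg
ATP5PF: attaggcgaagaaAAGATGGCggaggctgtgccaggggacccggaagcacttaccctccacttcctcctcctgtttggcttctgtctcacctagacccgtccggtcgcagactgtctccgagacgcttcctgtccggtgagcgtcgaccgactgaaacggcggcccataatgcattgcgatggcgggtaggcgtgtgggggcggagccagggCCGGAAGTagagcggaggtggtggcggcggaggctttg
NDUFAF8: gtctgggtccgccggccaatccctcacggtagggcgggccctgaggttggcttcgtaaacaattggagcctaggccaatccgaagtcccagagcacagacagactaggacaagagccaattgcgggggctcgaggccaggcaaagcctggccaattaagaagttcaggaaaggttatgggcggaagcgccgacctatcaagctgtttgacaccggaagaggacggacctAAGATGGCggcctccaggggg
NDUFS4: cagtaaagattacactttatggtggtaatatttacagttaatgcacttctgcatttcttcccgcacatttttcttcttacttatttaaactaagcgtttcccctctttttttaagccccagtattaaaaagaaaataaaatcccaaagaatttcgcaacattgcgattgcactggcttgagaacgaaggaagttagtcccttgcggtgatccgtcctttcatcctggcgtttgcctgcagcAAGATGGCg

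Most of the OXPHOS promoters were open in every library. A peak was present at 91 and 91 of the 99 members in the WT libraries, 84 and 89 with Y641F, 91 and 92 with A677G, and 91 and 91 with H689A/F667I. Of the members, 83 (83.8%) were open in all 8 libraries, against 55.4% of all protein-coding genes and 87.5% of the 80 cytosolic ribosomal protein genes, another set of ubiquitous genes. Only 7 members (7.07%) were open in no library, against 26.8% of all protein-coding genes. By complex, 32 of 36 complex I genes, all 4 complex II genes, all 12 assembly factors, 8 of 9 complex III genes, 10 of 18 complex IV genes and 17 of 20 complex V genes were open in all 8 libraries. Complex IV, with its tissue-restricted isoforms, therefore had the lowest share, at 55.6%.

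The 7 members that were open in no library were COX4I2, COX6A2, COX7B2, COX8C and NDUFA4L2 of complex IV, UQCRHL of complex III and ATP5MGL of complex V. COX4I2 is the lung isoform of subunit 4, COX6A2 the heart and muscle isoform of subunit 6A, COX8C a testis isoform of subunit 8, and NDUFA4L2 a paralogue of NDUFA4 induced in hypoxia. UQCRHL is an intronless copy of UQCRH, and ATP5MGL is a copy of ATP5MG. Their nearest peaks lay far outside the window in most cases. The nearest peak to the COX4I2 start was between 2869 and 3366 bp away in 6 libraries, and that of ATP5MGL between 8179 and 8844 bp away in all 8. NDUFA4L2 differed from the others in having a peak just outside the window, which lay 1555 to 2066 bp from its start in 7 libraries and 5765 bp away in Y641F replicate 1. COX7A1, the heart and muscle isoform of subunit 7A, was open only in A677G replicate 2, by a narrow peak of 242 bp that began 858 bp downstream of the TSS, with a fold over background of 3.65.

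The ubiquitous partners of these isoforms carried peaks. COX6A1 was open in all 8 libraries, with peaks of 1297 and 1314 bp in WT, 1253 and 581 bp with Y641F, 496 and 672 bp with A677G, and 719 and 524 bp with H689A/F667I. COX8A was also open in all 8. The share of G and C in the 300-base promoter window was higher in COX6A1 than in COX6A2, but lower in COX8A than in COX8C. The ratio of observed to expected CpG in that window was higher for the ubiquitous isoform in both pairs. It was 0.87 for COX6A1 and 0.25 for COX6A2, and 0.79 for COX8A and 0.38 for COX8C. COX8C nonetheless holds an NRF1 match 14 bases before its start, and it was open in no library.

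**Figure D1:**
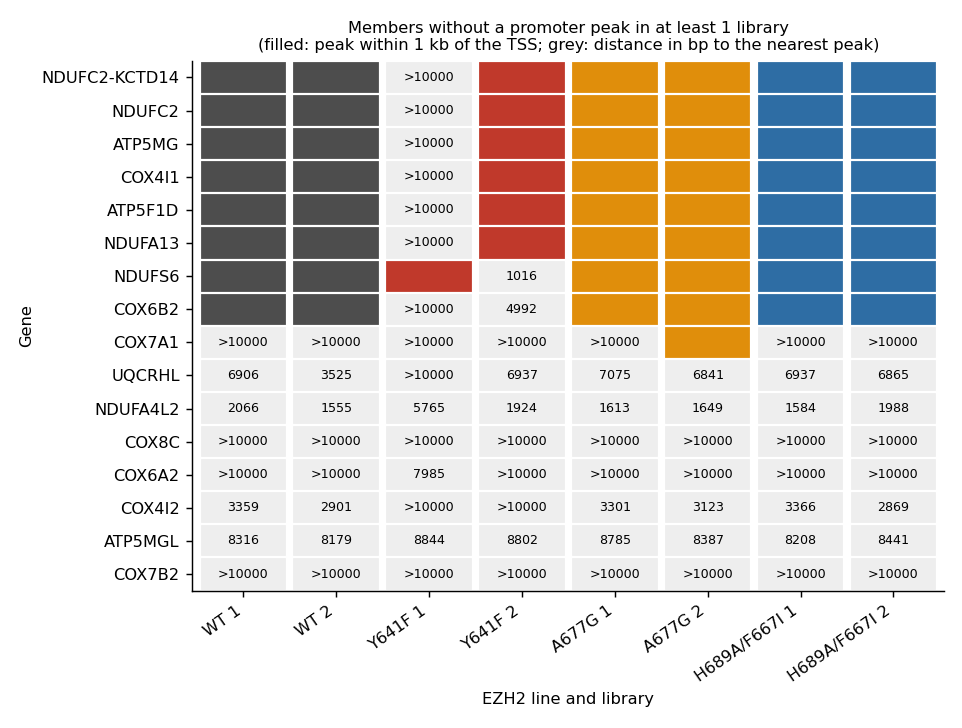
Presence of a promoter peak (filled, coloured by EZH2 line) in each library for the 16 members without a peak in at least 1 library; numbers in grey cells are the distance in bp from the TSS to the nearest peak. Grey cells of the upper 8 genes lie in the Y641F libraries, and the lower 8 genes were closed in nearly all libraries.

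Besides COX7A1, 8 members were open in some but not all libraries, and each of them was missing a peak in Y641F libraries only. Over all protein-coding genes the Y641F libraries also had the fewest open promoters, at 56.9% and 63.0%, against 64.7% to 69.7% in the others. The share of all genes closed in Y641F libraries only was not counted, so this count is not read as a trait of the members. NDUFC2 (with NDUFC2-KCTD14), NDUFA13, COX4I1, ATP5MG and ATP5F1D lacked a peak in Y641F replicate 1 alone. NDUFA13 and NDUFC2 are accessory subunits of complex I, COX4I1 is the ubiquitous isoform of complex IV subunit 4, and ATP5MG and ATP5F1D are the g and delta subunits of the ATP synthase. In WT their peaks all lay below the members' median −log10 p, which was 14.70 in replicate 1 and 14.26 in replicate 2. The peak of COX4I1 had a −log10 p of 8.41 and 7.73 in WT, 4.75 in Y641F replicate 2, 4.20 and 5.03 with A677G, and 6.60 and 6.60 with H689A/F667I. For NDUFA13, whose TSS lies at position 19516225 of chromosome 19, it was 12.97 and 10.70 in WT, 9.96 in Y641F replicate 2, 6.50 and 10.91 with A677G, and 8.64 and 7.88 with H689A/F667I. WT was thus the highest line for COX4I1, whereas for NDUFA13 the A677G replicate 2 value lay between the WT values. ATP5F1D had the narrowest WT peak of any member, with 362 and 354 bp in WT, 225 bp in Y641F replicate 2, 293 and 313 bp with A677G, and 317 and 374 bp with H689A/F667I.

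NDUFS6, an accessory subunit of complex I, lacked a peak in Y641F replicate 2 alone. Its window took in an upstream peak that in WT ran from 1892 and 1902 bp before the TSS to beyond it, with widths of 1972 and 2564 bp. In Y641F replicate 1, A677G replicate 2 and H689A/F667I replicate 2 the strongest peak ended 950, 901 and 965 bp before the TSS and did not cover it. In the first and the last of these libraries a second peak lay at the start, 27 bp from the TSS in Y641F replicate 1 and over it in H689A/F667I replicate 2. In Y641F replicate 2 the nearest peak was 1016 bp away, just outside the window, and with a window of 2 kb NDUFS6 was open in all 8 libraries. COX6B2, the testis isoform of subunit 6B (TSS at position 55354719 of chromosome 19), was the only member closed in both Y641F libraries and open in the other 6. Its peak did not cover the TSS in any library, beginning 408 and 280 bp downstream in WT, 408 and 294 bp with A677G, and 467 and 367 bp with H689A/F667I. Its fold over background was low, at 3.20 and 3.40 in WT, 2.95 and 2.89 with A677G, and 3.06 and 2.97 with H689A/F667I.

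A promoter was counted as lost when both WT libraries had a peak at it and neither library of the mutant did. Of the 91 members open in both WT libraries, 1 (COX6B2) was lost in Y641F, 0 with A677G and 0 with H689A/F667I, and no member closed in both WT libraries was open in both libraries of a mutant. The same count over all 12979 protein-coding genes open in both WT libraries was 7.27% with Y641F, 2.44% with A677G and 1.70% with H689A/F667I, so the members' shares of 1.10%, 0% and 0% lay below the background. This difference was not tested. The count in Y641F rested on both of its libraries: it was 7 without Y641F replicate 2 and 2 without Y641F replicate 1. For these counts no share of all genes was obtained, so they were not compared with the background. When each library was cut to its 25423 strongest peaks, ATP5F1D was lost in Y641F and COX4I1 in A677G, against 2.19% and 1.22% of all genes. At a stricter peak threshold (−log10 q of at least 5) 17 of 84 members were lost in Y641F, 9 with A677G and 7 with H689A/F667I, or 20.2%, 10.7% and 8.33%, against 29.6%, 15.9% and 11.1% of all genes.

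Among the 83 members open in all 8 libraries the peaks were somewhat narrower and stronger than at the average open promoter. Their median width was 1113 and 1075 bp in WT, 713 and 818 bp with Y641F, 822 and 876 bp with A677G, and 938 and 975 bp with H689A/F667I. Over all 10591 protein-coding genes open in all 8 libraries the medians were 1232 and 1218 bp in WT, 744 and 912 bp with Y641F, 907 and 984 bp with A677G, and 1018 and 1041 bp with H689A/F667I. Both sets had their widest peaks in WT and their narrowest in Y641F replicate 1, and the members' medians followed the order of the peak numbers in all 8 libraries. The mean of the library medians was 1094 ± 26.9 bp (SD, n = 2) in WT, 765.5 ± 74.2 bp with Y641F, 849 ± 38.2 bp with A677G and 956.5 ± 26.2 bp with H689A/F667I, or log2 ratios to WT of -0.52, -0.37 and -0.19. For all genes these ratios were -0.57, -0.37 and -0.25. How far the peak number of a library accounts for its widths was not tested.

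The fold of the pileup over the local background varied much less between libraries. Its median over the 83 members was 4.85 and 4.78 in WT, 4.38 and 4.69 with Y641F, 4.61 and 4.62 with A677G, and 4.79 and 4.78 with H689A/F667I. In each library this was above the median of all genes, which ranged from 4.02 in Y641F replicate 1 to 4.38 in WT replicate 2, and above that of the ribosomal protein genes, which ranged from 3.82 to 4.02. Ranked among the 10591 genes, the members' median lay between percentiles 62.6 (A677G replicate 1) and 69.7 (Y641F replicate 2) for fold, and between percentiles 35.9 (WT replicate 2) and 46.4 (Y641F replicate 1) for width. The ribosomal protein genes lay between percentiles 32.3 and 49.1 for fold. Both sets thus had peaks narrower than the typical open promoter, but lay on opposite sides of the middle for fold.

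**Figure D2:**
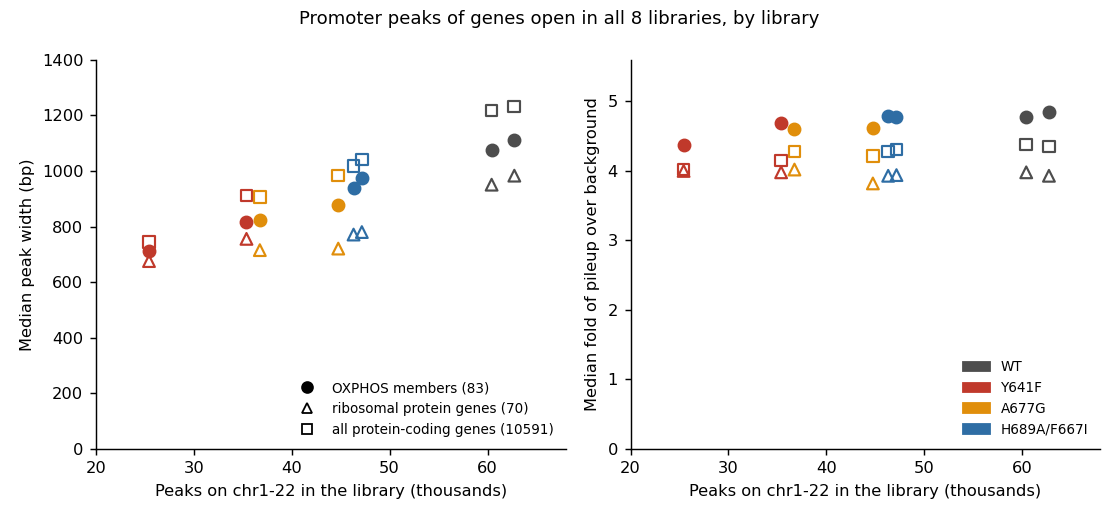
Median peak width (left, bp) and median fold of pileup over local background (right) of promoters open in all 8 libraries against the number of peaks in the library (in units of 1000); each point is 1 library, filled circles are OXPHOS members, triangles ribosomal protein genes and squares all protein-coding genes, coloured by EZH2 line. The members' widths followed the order of the peak numbers, from 713 bp to 1113 bp, whereas the members' folds stayed between 4.38 and 4.85.

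Peaks at the members were centred close to the TSS. In WT replicate 1 the median peak began 511 bp upstream and ended 490 bp downstream, and in Y641F replicate 1 it ran from 351 bp upstream to 244 bp downstream. The peak covered the TSS in all 8 libraries at 77 of the 83 members (92.8%), against 83.2% of all genes and 84.3% of the ribosomal protein genes. The 6 exceptions were NDUFA10, NDUFA11, NDUFB10, NDUFC1 and NDUFS4 of complex I and the assembly factor NDUFAF3. At NDUFC1, an accessory subunit, the strongest peak began 46 bp downstream of the TSS in WT replicate 1 and 95 bp upstream in WT replicate 2, and reached 1787 and 1643 bp downstream. At NDUFB10, another accessory subunit, the peak switched between a narrow and a broad form within lines: it was 2658 and 356 bp wide in WT, 236 and 754 bp with Y641F, 2540 and 2206 bp with A677G, and 300 and 3215 bp with H689A/F667I. This 13.62-fold span was the largest among the members, whose median span from the narrowest to the widest library was 2.03-fold, near the 2.00-fold of all genes.

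Extremes per complex are given by the mean of the 2 WT libraries. In a single WT library another gene was sometimes more extreme. Among the complex I genes open in all 8 libraries, the WT peaks were by this mean widest at NDUFB3, with 1960 and 1808 bp. They were narrowest at NDUFB7, with 569 and 562 bp. However, NDUFA3 had 486 bp in WT replicate 1, and NDUFB10 had 2658 bp in WT replicate 1 and 356 bp in WT replicate 2. NDUFB3 and NDUFB7 are accessory subunits. The NDUFB7 peak measured 244 and 367 bp with Y641F, 570 and 568 bp with A677G, and 536 and 584 bp with H689A/F667I, so that only Y641F had both libraries below both WT libraries. By the mean, NDUFB2 had the strongest WT peak of the complex, with a −log10 p of 24.70 and 26.18. By the same mean NDUFA7 had the weakest among those open in all 8 libraries, with 7.70 and 7.29, close to the 8.38 and 7.11 of NDUFA10. NDUFV1, the subunit that binds NADH and FMN, had peaks of 850 and 892 bp in WT, 391 and 595 bp with Y641F, 924 and 821 bp with A677G, and 893 and 1013 bp with H689A/F667I. NDUFS1, the largest iron-sulphur subunit, had peaks of 1318 and 1241 bp in WT, 719 and 1086 bp with Y641F, 1160 and 650 bp with A677G, and 709 and 880 bp with H689A/F667I. At NDUFS1 all 6 mutant libraries lay below both WT libraries, whereas at NDUFV1 those of Y641F lay below and those of H689A/F667I above both WT libraries. Over all promoters both widths lay below WT at 77.1% in Y641F, 63.4% with A677G and 51.5% with H689A/F667I. After the quantile normalisation described below, the log2 width differences in Y641F were 0.185 at NDUFB7, 0.027 at NDUFS1 and -0.02 at NDUFV1. None of these was called.

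All 4 genes of complex II, which is also an enzyme of the tricarboxylic acid cycle, were open in every library. SDHA, the flavoprotein subunit, had the broadest WT peaks of the complex at 1799 and 2202 bp, and measured 914 and 1765 bp with Y641F, 1968 and 1840 bp with A677G, and 1992 and 1308 bp with H689A/F667I. SDHC, a membrane anchor, had the narrowest by the mean, at 895 and 1062 bp in WT, next to 1116 and 954 bp at SDHB. SDHB, the iron-sulphur subunit, had the strongest, with a −log10 p of 16.43 and 18.47 in WT, 10.19 and 9.41 with Y641F, 10.09 and 10.82 with A677G, and 12.11 and 11.94 with H689A/F667I. The mutant libraries of SDHB were all below WT, as were the medians over all genes. SDHD, the other membrane anchor, had the lowest mean in WT, from values of 12.73 and 10.42, close to the 13.41 and 11.13 of SDHA.

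In complex III, UQCRQ, a small subunit, had the strongest WT peak, with a −log10 p of 21.80 and 23.16 and widths of 999 and 1003 bp. UQCRFS1, the Rieske iron-sulphur protein, had the narrowest WT peaks at 831 and 662 bp, and measured 302 and 734 bp with Y641F, 316 and 378 bp with A677G, and 301 and 595 bp with H689A/F667I. UQCRC1, a core protein, measured 920 and 875 bp in WT, 509 and 612 bp with Y641F, 683 and 855 bp with A677G, and 938 and 781 bp with H689A/F667I. The mutant libraries overlapped with WT at both genes in at least 1 line. UQCRH, the hinge protein, was the widest on average in WT, where its peak measured 762 bp in replicate 1 and 2438 bp in replicate 2; in H689A/F667I it measured 2387 and 2422 bp and in no other mutant library over 1046 bp. The broad form began 2278 to 2305 bp upstream of the TSS, past the start of the neighbouring gene LRRC41, 82 bp away.

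Among the complex IV genes open in all 8 libraries, COX6A1 had the strongest WT peaks and, by the mean, the widest. In single WT libraries COX5A (1444 bp in replicate 1) and COX7A2L (1327 bp in replicate 2) were wider. COX6B1, the ubiquitous isoform of subunit 6B, had the narrowest. COX6B1 measured 413 and 425 bp in WT, 332 and 369 bp with Y641F, 407 and 389 bp with A677G, and 377 and 412 bp with H689A/F667I, a small span compared with the other members. COX6C had the weakest WT peaks of these genes, with a −log10 p of 8.91 and 8.59. COX5A, a subunit on the matrix side, had peaks of 1444 and 1114 bp in WT, 713 and 696 bp with Y641F, 1208 and 876 bp with A677G, and 896 and 1091 bp with H689A/F667I. Its Y641F libraries agreed closely with each other and lay below those of every other line. Both Y641F widths lay below WT at 77.1% of all promoters. After the quantile normalisation described below, the log2 width difference of COX5A in Y641F was -0.265, with adjusted p = 0.602 by limma.

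Complex V held the strongest promoter peak. ATP5F1B, the catalytic beta subunit, had the highest −log10 p of any member in WT, with 32.17 and 33.77, and it was 26.05 and 29.80 with Y641F, 29.31 and 36.44 with A677G, and 38.19 and 32.47 with H689A/F667I. Its fold over background was 6.83 and 7.19 in WT, 7.28 and 7.53 with Y641F, 7.34 and 7.52 with A677G, and 8.34 and 7.36 with H689A/F667I, every mutant library above both WT libraries. The log2 fold differences of ATP5F1B after the quantile normalisation described below were 0.10, 0.07 and 0.13 in the same order. Their adjusted p was 0.568, 0.776 and 0.748 by limma. The mean width of the ATP5F1B peak was 831.5 bp in WT, 581 bp with Y641F, 608 bp with A677G and 647.5 bp with H689A/F667I. ATP5F1A, the alpha subunit that forms the catalytic head with beta, was by contrast the weakest of the complex among those open in all 8 libraries, with a −log10 p of 8.31 and 9.07 in WT, 6.08 and 5.96 with Y641F, 5.76 and 5.06 with A677G, and 6.12 and 6.49 with H689A/F667I. Partners that occur in equal number in the enzyme thus differed widely in the strength of the promoter peak. ATP5PF, coupling factor 6 of the stalk, had the widest WT peaks by the mean, at 1779 and 1505 bp, although the widest in WT replicate 2 was 1785 bp. ATP5MF, the f subunit, had the narrowest among those open throughout, at 602 and 610 bp.

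**Figure D3:**
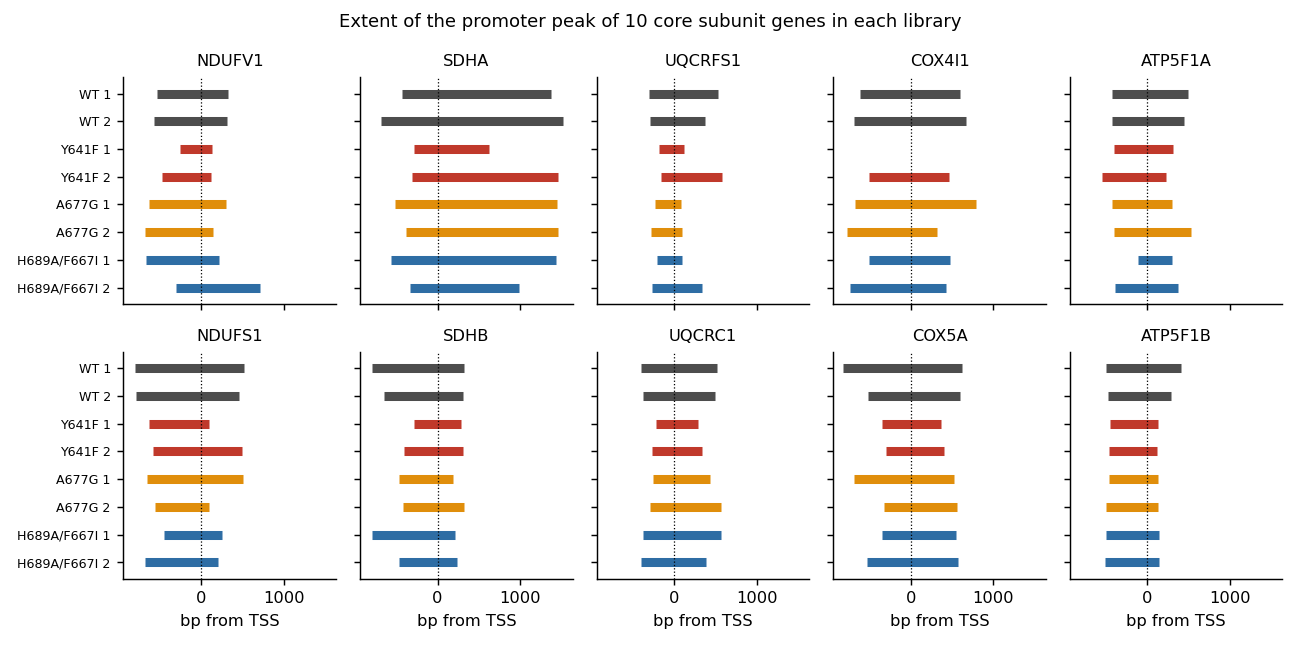
Extent of the promoter peak in bp from the TSS (dotted line at 0) for 10 subunit genes, 1 bar per library, coloured by EZH2 line, with complexes I to V from left to right. SDHA peaks reached past 1000 bp downstream in most libraries, the COX4I1 bar is missing in Y641F replicate 1, and ATP5F1B peaks ended close together on the downstream side in the 6 mutant libraries.

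Widths and folds were first compared as measured. Of the 83 members, 62 had both Y641F widths below both WT widths, 56 with A677G and 39 with H689A/F667I, or 74.7%, 67.5% and 47.0%, against 77.1%, 63.4% and 51.5% of all genes. The opposite order was seen at 0, 0 and 3 members, against 0.614%, 1.36% and 3.27% of all genes. For the fold over background, 31, 24 and 19 members had both mutant libraries below both WT libraries in Y641F, A677G and H689A/F667I, or 37.3%, 28.9% and 22.9%, against 40.3%, 30.6% and 25.2% of all genes. Both mutant libraries were above at 11, 14 and 12 members, or 13.3%, 16.9% and 14.5%, against 15.8%, 19.5% and 19.4%. The members' shares were near the background throughout, so these counts describe the libraries as a whole rather than the OXPHOS genes.

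The differences were then tested with limma on log2 values that had been quantile-normalised over the 10591 promoters open in all 8 libraries, with Benjamini-Hochberg adjustment over all of them. No member was called in any mutant, by fold or by width. At an unadjusted p below 0.05 there were 17, 9 and 6 members by fold in Y641F, A677G and H689A/F667I, and 11, 14 and 9 by width. Over all promoters the calls were 1.75%, 0% and 0% by fold and 0.142%, 0.113% and 0.0283% by width in the same order, and unadjusted p was below 0.05 by fold at 21.8%, 14.0% and 8.54% of them, against 20.5%, 10.8% and 7.23% of the members. By width these shares were 19.2%, 12.8% and 7.02% of all promoters, against 13.3%, 16.9% and 10.8% of the members. The median log2 fold difference of the members was 0.00, -0.02 and 0.00, and the median standard error of a single member was 0.11. The quantile normalisation gives every library the same distribution over all promoters, so these medians place the members relative to the other promoters only. The width fit was less precise, with a median standard error of 0.22, and the members' median log2 width difference was 0.12, 0.13 and 0.10, next to 0.09, 0.10 and 0.07 for all promoters. Its sign depends on the scaling: without scaling the members' medians were -0.51, -0.28 and -0.18 and those of all promoters -0.52, -0.30 and -0.19.

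**Figure D4:**
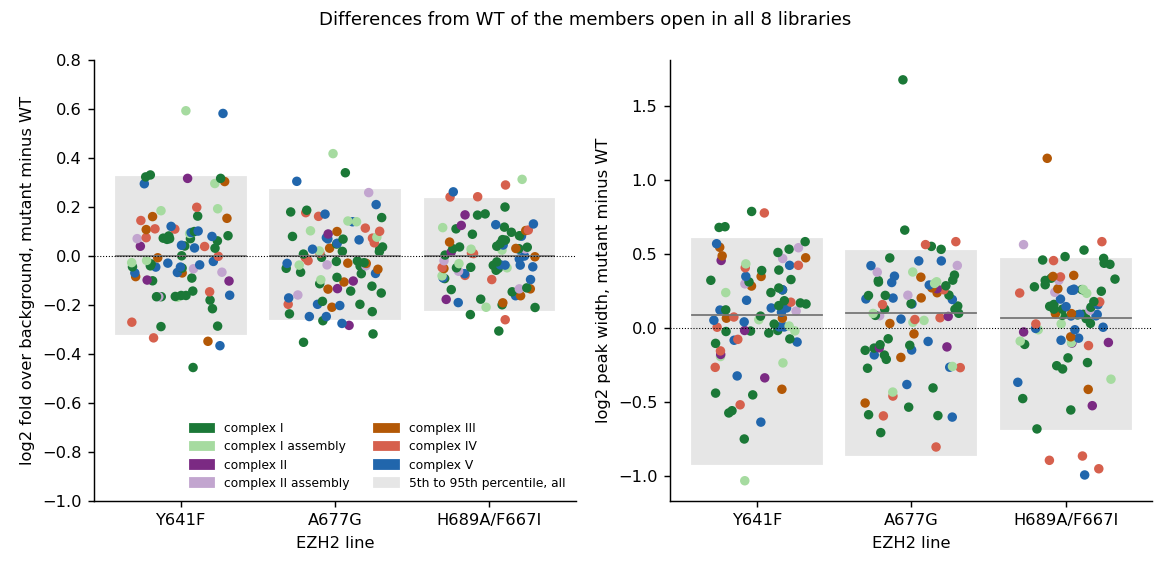
Differences from WT in log2 fold over background (left) and log2 peak width (right) after quantile normalisation, for the members open in all 8 libraries, 1 point per gene coloured by complex; the grey box spans the 5th to 95th percentile of all 10591 promoters and the grey line their median. Most members lie inside the box in every mutant, and none was called.

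The members with the most extreme fold differences in Y641F were 2 complex I genes and 2 complex V genes, and none passed the adjusted test. NDUFAF8, an assembly factor of complex I, had a fold over background of 4.62 and 4.73 in WT, 7.38 and 6.20 with Y641F, 5.73 and 6.54 with A677G, and 6.62 and 4.95 with H689A/F667I. Its peak was 1059 and 906 bp wide in WT, 482 and 713 bp with Y641F, 942 and 610 bp with A677G, and 575 and 975 bp with H689A/F667I. Within each line the narrower peak had the higher fold, and how far the fold depends on the called width was not tested. By fold, all 6 mutant libraries lay above both WT libraries. The log2 fold differences were 0.59 ± 0.14 (SE) in Y641F, 0.42 ± 0.14 with A677G and 0.31 ± 0.14 with H689A/F667I, with adjusted p = 0.0532, 0.228 and 0.580 by limma. In Y641F it came close to the threshold and passed it under several other settings. These were median centring (adjusted p = 0.0449 by limma), no scaling (0.0462), a window of 2 kb (0.0497) and equal peak numbers (0.05 as rounded). Under these settings 2.37% to 4.78% of all promoters tested were called by fold in Y641F. Without Y641F replicate 2, which left 1 library for Y641F, the log2 difference of NDUFAF8 was 0.73. NDUFAF8 was not called without Y641F replicate 1 or under the remaining alternatives. ATP5IF1, the inhibitor of the ATP synthase, had folds of 4.01 and 4.54 in WT, 6.67 and 5.49 with Y641F, 6.08 and 4.37 with A677G, and 5.58 and 4.58 with H689A/F667I. Both Y641F and both H689A/F667I libraries lay above both WT libraries, and its log2 difference in Y641F was 0.58 ± 0.16 (SE) with adjusted p = 0.0683 by limma. The mean width of the ATP5IF1 peak was 1098 bp in WT, 533 bp with Y641F, 987.5 bp with A677G and 1010 bp with H689A/F667I.

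NDUFS4, an accessory subunit of complex I, was at the other end. Its peak was also narrower in Y641F, with 548 and 573 bp against 883 and 686 bp in WT. Its fold was 5.65 and 6.18 in WT, 3.64 and 4.65 with Y641F, 4.32 and 4.87 with A677G, and 5.01 and 5.86 with H689A/F667I. Both Y641F and both A677G libraries lay below both WT libraries, and the log2 difference was -0.46 ± 0.13 (SE) in Y641F and -0.35 ± 0.13 with A677G, with adjusted p = 0.0712 and 0.249 by limma. In Y641F it passed the threshold without scaling (adjusted p = 0.0407 by limma), with the replicate number as a block (0.0457) and without Y641F replicate 2 (0.0450). In the last of these fits SDHA and NDUFAF2 were called as well, making 4 of 83 members with NDUFAF8, next to 3.49% of all promoters (NDUFAF2, an assembly factor, was picked out for this after its values were seen). That fit had 1 library for Y641F, the one with the fewest peaks, and assumed that it varies like the other lines. ATP5MJ, a small membrane subunit of the ATP synthase, was the second lowest in Y641F, with folds of 5.41 and 7.37 in WT and 4.72 and 4.65 with Y641F, a log2 difference of -0.37 ± 0.13 (SE) and adjusted p = 0.138 by limma.

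In A677G the highest fold difference after that of NDUFAF8 was at NDUFC1, with 4.02 and 3.90 in WT and 4.85 and 4.94 with A677G (log2 difference 0.34 ± 0.09 SE, adjusted p = 0.184 by limma). NDUFA5, an accessory subunit, was the lowest after NDUFS4, with 5.55 and 4.94 in WT and 3.78 and 4.49 with A677G (log2 difference -0.32 ± 0.12 SE, adjusted p = 0.265 by limma). In H689A/F667I, COX7C and COX5B, both subunits of complex IV, lay towards opposite ends. COX7C had folds of 4.75 and 4.82 in WT and 5.85 and 5.77 with H689A/F667I, and COX5B had 5.12 and 5.92 in WT and 4.32 and 4.85 with H689A/F667I. Their log2 differences were 0.29 ± 0.09 (SE) and -0.26 ± 0.11, with adjusted p = 0.442 and 0.537 by limma. NDUFS5, an accessory subunit of complex I, was the lowest there, with 4.87 and 4.78 in WT and 3.81 and 3.88 with H689A/F667I (log2 difference -0.31 ± 0.10 SE, adjusted p = 0.458 by limma).

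The widths at the extremes gave no call either. NDUFAF7, a methyltransferase that takes part in complex I assembly, had peaks of 1670 and 1701 bp in WT, 510 and 565 bp with Y641F, 1795 and 1677 bp with A677G, and 1618 and 1294 bp with H689A/F667I. Both Y641F peaks were far narrower than those of every other library, and the scaled log2 width difference was -1.03 ± 0.18 (SE) with adjusted p = 0.110 by limma, or -1.65 with adjusted p = 0.0113 without scaling. Without scaling 7 of 83 members were called narrower in Y641F by width, next to 9.1% of all promoters, a like share: NDUFAF7, NDUFS8, COX6C, COX7C, ATP5MJ, and ATP5MF with its readthrough gene. NDUFV2 and COX6B1 had the highest scaled width differences in Y641F, at 0.79 ± 0.26 (SE) and 0.78 ± 0.18, with adjusted p = 0.216 and 0.154 by limma. The measured peaks of NDUFV2 were 852 and 692 bp in WT and 850 and 756 bp with Y641F, whereas both Y641F peaks of COX6B1 were narrower than in WT, and without scaling the log2 differences were 0.06 and -0.26, so the sign at COX6B1 depends on the scaling. For COX7C in H689A/F667I the peaks were 1138 and 1059 bp in WT and 428 and 554 bp in the mutant, a scaled log2 difference of -0.95 ± 0.21 (SE) with adjusted p = 0.316 by limma, in the same libraries in which its fold was higher. NDUFB10 and UQCRH had the largest positive width differences in A677G and H689A/F667I, at 1.68 ± 1.30 (SE) and 1.15 ± 0.58, with the spread between broad and narrow forms given above.

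The study names the proteins of NDUFB1, NDUFV2 and NDUFA13, all subunits of complex I, and their promoters were therefore examined one by one. At NDUFB1 (TSS at position 92121706 of chromosome 14) the fold was 3.55 and 4.25 in WT, 4.00 and 3.52 with Y641F, 3.59 and 4.00 with A677G, and 3.76 and 4.07 with H689A/F667I. All mutant values but the 3.52 of Y641F replicate 2 lay between the WT values, and the log2 differences were 0.03, -0.01 and 0.03, each ± 0.12 (SE). Its peak was narrower in every mutant library, with 1693 and 1357 bp in WT, 488 and 935 bp with Y641F, 816 and 787 bp with A677G, and 1188 and 1085 bp with H689A/F667I, and the scaled log2 width differences were -0.56, -0.59 and -0.20, each ± 0.22 (SE), with adjusted p = 0.245, 0.364 and 0.854 by limma. At NDUFV2, an iron-sulphur subunit (TSS at position 9102699 of chromosome 18), the fold was 5.01 and 5.31 in WT, 3.94 and 4.02 with Y641F, 5.71 and 4.18 with A677G, and 4.55 and 4.52 with H689A/F667I. Both Y641F, both H689A/F667I and 1 of the A677G libraries lay below both WT libraries, and the log2 differences were -0.29, -0.05 and -0.18, each ± 0.12 (SE), with adjusted p = 0.201, 0.894 and 0.726 by limma. NDUFA13 could not be fitted because it lacked a peak in Y641F replicate 1, and its fold was 4.51 and 4.06 in WT, 4.91 in Y641F replicate 2, 3.67 and 4.30 with A677G, and 3.78 and 3.70 with H689A/F667I. The H689A/F667I values of NDUFA13 were below both WT values, the Y641F value was above both, and A677G overlapped with WT. For none of these 3 genes did all mutant folds lie above those of WT.

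Several members share their promoter with another gene. For 28 of the 99 members (28.3%) the start of a protein-coding gene on the opposite strand lay within 1 kb upstream, against 9.57% of all protein-coding genes and 17.5% of the ribosomal protein genes. Among genes open in all 8 libraries, which is the closer background, this held for 26 of 83 members and 1663 of 10591 protein-coding genes. A peak over such a pair cannot be assigned to either gene. Genes described above are among them: NDUFAF8 starts 263 bp from TEPSIN and NDUFAF7 62 bp from CEBPZ. SDHA starts 167 bp from CCDC127 and NDUFB1 263 bp from CPSF2. The partner of ATP5PF is GABPA, the DNA-binding subunit of GABP, 68 bp away. SDHD starts 117 bp from TIMM8B, a chaperone for protein import into mitochondria, and NDUFB5 156 bp from MRPL47, a subunit of the mitochondrial ribosome. NDUFA7 starts 121 bp from RPS28, a cytosolic ribosomal protein gene, and NDUFS1 451 bp from EEF1B2, a translation elongation factor gene. Of the 28, 26 were open in all 8 libraries, and COX4I1, 151 bp from EMC8, and NDUFA13, which faces TSSK6, were not. In WT replicate 1 the 26 had a median width of 1267 bp and the other 57 members 1065 bp, and the same order held in the other libraries, by as little as 714 to 713 bp in Y641F replicate 1; over all genes it was 1305 and 1215 bp in WT replicate 1. The ATP5PF peak, over the promoter shared with GABPA, had a fold of 4.16 and 4.52 in WT, 5.21 and 4.82 with Y641F, 5.09 and 4.44 with A677G, and 4.38 and 3.97 with H689A/F667I, with both Y641F libraries above both WT libraries and the other lines overlapping with WT.

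Motifs of the factors named above were more frequent in the members' promoters than in those of all genes. RefSeq promoter windows of 300 bases, from 250 before the start to 50 after it, were matched to 79 of the 99 members. An NRF1 match was found in 26 of these 79 windows (32.9%), against 11.6% of the 14621 protein-coding genes with a window, 16.8% of the 8562 of them that were open in all 8 libraries, and 12.7% of the 63 ribosomal protein genes with a window. YY1 was found in 13 (16.5%), against 4.16%, 6.05% and 11.1%. ETS was found in 13 (16.5%), against 6.58%, 9.92% and 17.5%, so for this motif the ribosomal protein genes had a like share. The ERRA motif AAGGTCA was found in 10 (12.7%), against 2.92%, 1.88% and 3.17%. The shares of the general promoter motifs lay close to or below those of other genes: the SP1 motif GGGCGG was found in 64.6%, against 62.2% of all genes and 75.8% of those open in all 8, the CCAAT box in 31.6%, against 36.3% and 39.4%, and the TATA box TATAAA in 6.33%, against 9.47% and 4.61%. All motifs were searched on both strands, none contains another, and a match is a stretch of letters and not evidence of a bound factor.

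At least 1 of the NRF1, ETS and YY1 motifs was present in 44 of the 79 windows (55.7%), against 20.2% of all genes and 29.3% of genes open in all 8 libraries. By complex this was 6 of 7 windows in complex III, all 3 in complex II, 10 of 14 in complex V, 16 of 31 in complex I and 4 of 13 in complex IV, with 3 of 4 among the assembly factors of complex II and 2 of 7 among those of complex I. SDHA, whose WT peaks were the broadest of complex II, holds 4 NRF1 matches, as does NDUFB4, an accessory subunit of complex I. The YY1 match of NDUFAF8 begins 10 bases into the transcript and that of NDUFS4 begins 22 bases into it, so the genes with the highest and the lowest fold difference in Y641F share this motif at a like place. ATP5PF, with both an ETS and a YY1 match, has its ETS match 8 bases before the start, and NDUFA13 has 1 at 10 bases before the start. Members open in all 8 libraries with an NRF1 match (24) had a median fold of 4.86 and 4.65 in WT, and those without (46) had 4.60 and 4.77, so the order of these medians turned between the WT replicates.

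**Figure D5:**
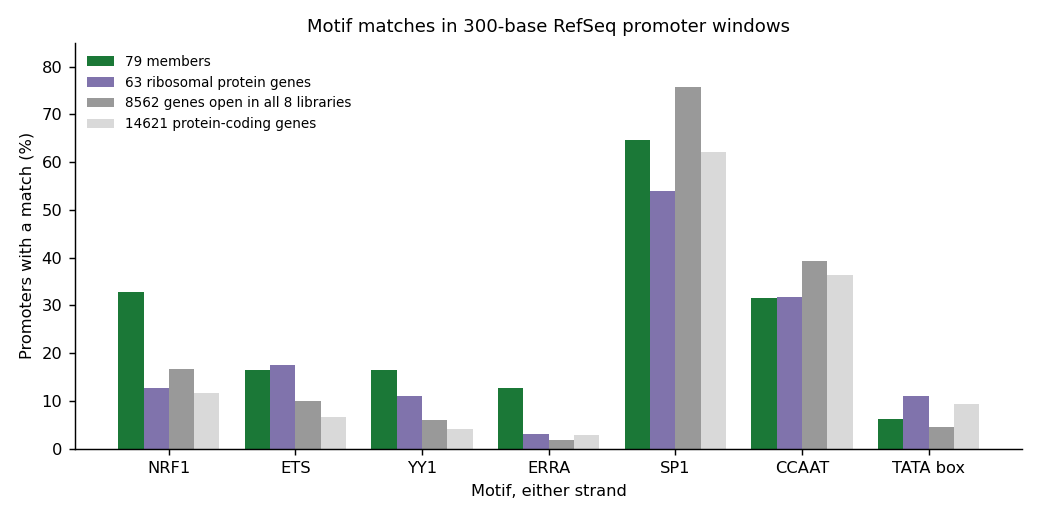
Share of promoter windows (%) with at least 1 match to each of 7 motifs, searched on both strands, in the OXPHOS members, the ribosomal protein genes, all protein-coding genes open in all 8 libraries and all protein-coding genes with a window; bars start at 0. The members' bars are the tallest for NRF1, YY1 and ERRA, at 32.9%, 16.5% and 12.7%.

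Other genes of the pathway were also mostly open throughout. Of 40 assembly and cofactor genes outside the rule, 35 were open in all 8 libraries and 0 were lost in any mutant; ACAD9, CYC1, SURF1, TACO1 and TMEM70 lacked a peak in Y641F replicate 1 alone. Of 12 transcription regulators, 11 were open in all 8 libraries, and YY1 lacked a peak in Y641F replicate 2 alone. All 12 tricarboxylic acid cycle genes were open in all 8. Of the promoters of these lists, COX16, which takes part in complex IV assembly, was called lower in Y641F by fold, with a log2 difference of -0.64 ± 0.13 (SE) and adjusted p = 0.0382 by limma. POLRMT, the mitochondrial RNA polymerase, was called higher in Y641F, with a log2 difference of 0.46 ± 0.09 (SE) and adjusted p = 0.0380 by limma. In the 3 lists 1 of 35, 1 of 11 and 0 of 12 promoters open in all 8 libraries were called by fold in Y641F, next to 1.75% of all promoters. The difference from that share was not tested. No gene of the 3 lists was called in A677G or H689A/F667I or by width.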

How the data were processed

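The members and all gene lists were chosen with earlier results of these data known. Per the labels, ATAC-seq was run on 8 HEK293T libraries, 2 per EZH2 line, described as independent replicates. The authors trimmed reads with Trim Galore 0.6.5, aligned them with BWA 0.7.17 to GRCh38, removed duplicates and called broad peaks in each library with MACS2 2.2.7.1; a transposase read shift, mitochondrial read removal and depth are not given in the sources used here. The deposited peak lists give the fold ratio of pileup over local background (column 7), −log10 p (column 8), −log10 q (column 9, lowest just above 1) and a deposited score that was not used. Wider genomic coverage and read counts were not analysed here, so differences were tested on peak values.

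For each gene the peak with the highest −log10 p within 1 kb of the TSS of the Ensembl canonical transcript (GENCODE 44) was taken, and no peak ran past a chromosome end of hg38. With a peak required in all 8 libraries, log2 fold and log2 width of 10591 promoters were quantile-normalised and fitted in limma 3.58.1 (R 4.3.3) with a term per line over all 8 libraries, each mutant against WT and against each other mutant, with Benjamini-Hochberg adjustment over all promoters and a threshold of 0.05. P-values measure the spread between the 2 libraries of a line, each of which is 1 selected population. Scripts were tested on simulated data. Summaries used Python (pandas 2.3.3, numpy 2.4.6).

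Named genes followed a written rule. It took every member without a peak in at least 1 library, and per complex those with the highest and lowest mean WT width and −log10 p. It also took the called members, or else the 2 highest and 2 lowest differences per mutant and measure. Further genes were the 3 subunits the study names, 10 fixed subunits, and tissue-restricted or retrocopy isoforms (of which ATP5F1EP2 was not found among protein-coding genes). The X-linked NDUFA1, NDUFB11 and COX7B lay outside the rule. RefSeq promoter sequences (GRCh38.p14) were matched by symbol, strand and nearest start, all 79 within 100 bp of the canonical start; none was matched for 20 members, among them ATP5F1B, ATP5F1D, ATP5MC3, ATP5MF, ATP5MF-PTCD1, ATP5MGL, COX4I2, COX6C, COX7A1, NDUFA4, NDUFA4L2, NDUFAF6, NDUFB5, NDUFB9, NDUFC2, NDUFS5, SDHC, UQCRB and UQCRHL. Alternatives were a stricter peak threshold, equal peak numbers, other windows and TSS choices, the nearest peak, other scalings, the replicate number as a block, and each library left out.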

Additional observations from a re-analysis of the deposited data

Results flagged for a closer look

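In 3 cases a named gene had both libraries of 1 mutant above and both libraries of another mutant below both WT libraries in the measured values. This joint pattern was not counted over all promoters. Over all 10591 promoters, width was below WT in Y641F at 77.1% and above WT in H689A/F667I at 3.27%. Fold was below WT in Y641F at 40.3% and above WT in A677G at 19.5%. By limma on the scaled values, the difference between the opposed mutants had adjusted p = 0.494 for COX5B, 0.377 for NDUFV1 and 0.357 for COX6C. The COX5B peak was 524 and 603 bp wide in Y641F, 898 and 806 bp in WT and 1067 and 917 bp in H689A/F667I, a gap of 428.5 bp between the means of the mutants. The NDUFV1 peak was 391 and 595 bp in Y641F, 850 and 892 bp in WT and 893 and 1013 bp in H689A/F667I, a gap of 460.0 bp, in which 1 H689A/F667I library cleared WT by a single base pair. The COX6C fold over background was 3.06 and 3.54 in Y641F, 4.33 and 4.38 in WT and 4.56 and 4.53 in A677G, a gap of 1.25. Of all libraries, Y641F replicate 1 had the fewest peaks and the lowest median width over all genes, and the part of this in the width values was not tested.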

How the results depend on the processing

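Depth is unknown, so the precision of a peak is known only from the 2 libraries of a line. The other windows, the nearest peak and any coding transcript start moved no result by more than the spread or 1.5 times, except 1 fold call in Y641F with a window of 2 kb. At −log10 q of at least 5, members open fell to 46 in Y641F, 60 in A677G and 45 in all 8 libraries, members lost were 17, 9 and 7 in Y641F, A677G and H689A/F667I, and the median log2 width differences were 0.01, 0.09 and 0.06. With equal peak numbers, 1 member was lost in A677G, 1 was called by fold in Y641F, and the Y641F median width difference was 0.05. With peaks required to cover the TSS, 2 of 89 members (2.25%) were lost in Y641F, against 9.8% of all genes. The median width differences were then 0.02 in Y641F and 0.08 in A677G. Median centring gave 1 fold call in Y641F and a median width difference of 0.07 in H689A/F667I. Without scaling there were 2 fold calls (NDUFAF8, NDUFS4) and 7 width calls in Y641F, a median fold difference of -0.06 in Y641F, and median width differences of -0.51, -0.28 and -0.18; ATP5MF turned from a positive scaled width difference in Y641F to -0.95.

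Leaving out 1 library at a time, members lost in Y641F ranged from 1 to 7 and fold calls in Y641F from 0 to 4, with the 7 and the 4 without Y641F replicate 2. The median fold difference ranged from -0.02 to 0.01 in A677G and from -0.03 to 0.01 in H689A/F667I, and the median width difference from 0.12 to 0.18 in A677G and from 0.10 to 0.20 in H689A/F667I. Same-numbered libraries did not deviate together (correlations from -0.021 to 0.051 over promoters), so the numbers do not pair them; with the replicate number as a block, 1 member (NDUFS4, adjusted p = 0.0457 by limma) was called by fold in Y641F and no other count of calls changed. Of 277 results recomputed under an alternative, 244 stayed within the spread or 1.5 times of the value reported.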

Other observations

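The 3 OXPHOS genes on chromosome X, which were left out of the counts above, were read in the same way. NDUFB11, an accessory subunit of complex I, was open in all 8 libraries, with widths of 1096 and 1198 bp in WT, 900 and 965 bp with Y641F, 966 and 857 bp with A677G, and 774 and 987 bp with H689A/F667I. NDUFA1, another accessory subunit, was also open in all 8, with 1851 and 1690 bp in WT, 708 and 1722 bp with Y641F, 1553 and 1659 bp with A677G, and 1043 and 1703 bp with H689A/F667I. COX7B, a subunit of complex IV, had narrow peaks of 405 and 419 bp in WT, 200 bp in Y641F replicate 2 and 288 bp in A677G replicate 1. It had no peak in the other Y641F and A677G libraries or in either H689A/F667I library, so the H689A/F667I line lacked a promoter peak that both WT libraries carried, which none of the 91 autosomal members open in WT did. The loss of COX7B was noticed after the values were seen and was not tested.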
